A study of Mus musculus with 3 samples.

Results

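The 925 regions described here were selected on measured values: each had a scaled count above 100 in the EBF1wt library and at or below 100 in the EBF1E271A library. They are 22.5% of the 4116 deposited regions of 300 bp. Overlapping regions merge into 2121 loci, and 508 of these (24.0%) hold at least 1 such member region. The values come from chromatin immunoprecipitation and sequencing (ChIP-seq), in which DNA crosslinked to a protein is recovered with an antibody and counted. Both ChIP libraries and an input library came from pro-B cells of C57BL/6 mice, 1 library per group. The cells were grown with IL7, SCF and Flt3 ligand from c-kit+ progenitors of E16.5 Ebf1-/- fetal liver, so no group had its own Ebf1. All groups carried the same 2 added parts of a switch, the transactivator pMYs-rtTA-Advanced-tdTomato and the inducible pRetroX-Tight-Pur-FLAG-NICD1, and had received 1 µg/ml doxycycline for 6 hours. NICD1 is the intracellular domain of the receptor Notch1, and no group lacked its induction. EBF1 was given back from a retrovirus, as pMys-StrepFLAG-EBF1wt_IRES_GFP in 1 ChIP library and as pMys-StrepFLAG-EBF1E271A_IRES_GFP in the other, and the input came from EBF1wt cells. The levels of both proteins are set by the vector and were not analysed here, and the cells had been grown on OP9 stroma and were taken off it for the induction. Human BJAB cells, a B lymphoma line, were added to set the scale, 1 for every 10 mouse cells. The table holds ChIP values only, so the identity of the cells was not checked against marker expression.

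EBF1 (early B cell factor 1) is a DNA-binding protein required for the B lineage. It binds as a dimer to a palindromic sequence and switches on genes of the pre-B cell receptor together with Pax5, Foxo1 and the E proteins. Notch1 acts at the other side of this choice: its cleaved intracellular domain joins the DNA-binding protein RBPJ and promotes the T lineage. The question the libraries address is where a substituted EBF1 occupies DNA less than the wild-type protein while NICD1 is present.

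Sequence was read only where a member overlaps a RefSeq promoter window of the same build (GRCm38.p6, 250 bases before to 50 after a gene's start). The EBF1 motif searched was CCCNNGGG with T before it and A after it, a palindrome that reads the same on both strands. It was found in 9 of the 35 promoter windows that shared at least 150 bases with a member region. These 9 are printed as 30 bases around the motif, 5′ to 3′ on the gene's strand, with the motif in capitals, because they show the element that the DNA-binding protein is known to recognise at strong and weak members alike.
Gm30039, chr10:78092898-78092927 (minus strand): gaggtgtggcTCCCATGGGAcacatcaaat
Gm20485, chr5:136870416-136870445 (minus strand): ccccagccccTCCCTGGGGAattccaggca
Capzb, chr4:139193925-139193954 (plus strand): acagggcattTCCCTTGGGAgggcctagtg
Opn3, chr1:175692786-175692815 (minus strand): tccagggaggTCCCGTGGGAgggactgcaa
Gm36126, chr19:29684228-29684257 (minus strand): caacctcctgTCCCTGGGGActgcagcaag
Mier1, chr4:103119241-103119270 (plus strand): cctcgcgcgcTCCCCCGGGAcggcggccgc
Ninl, chr2:151009405-151009434 (minus strand): ccccgcccctTCCCTGGGGAggccccgcga
Ank2, chr3:126998646-126998675 (minus strand): gtcagttggcTCCCTTGGGAgtggggccct
Cycs, chr6:50566774-50566803 (minus strand): cacacccggaTCCCAAGGGAgcatcggccc
The central bases differ among the 9 windows, from AT at Gm30039 and GT at Opn3 to CC at Mier1. The motif's centre lay 2 to 139 bp from the centre of the member region, with a median of 12 bp, and within 50 bp in 8 of the 9. The exception at 139 bp was Gm20485. Across the 9 windows the region's EBF1wt value ran from 240.3 scaled counts at Gm30039 to 101.2 at Ank2 and Cycs, and the ratio of EBF1E271A over EBF1wt from 0.387 at Gm30039 to 0.925 at Cycs.

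The 5 promoter windows with the highest EBF1wt values are printed as the stretch that lies both in the member region and before the start site, on the gene's strand. Capitals mark the best match to the EBF1 motif, which has 8 fixed positions.
Gm30039, chr10:78092881-78093064 (minus strand): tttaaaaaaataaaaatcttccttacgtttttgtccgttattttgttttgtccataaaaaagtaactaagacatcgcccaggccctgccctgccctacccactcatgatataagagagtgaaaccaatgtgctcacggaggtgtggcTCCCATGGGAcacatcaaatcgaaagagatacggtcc
Gm20485, chr5:136870420-136870624 (minus strand): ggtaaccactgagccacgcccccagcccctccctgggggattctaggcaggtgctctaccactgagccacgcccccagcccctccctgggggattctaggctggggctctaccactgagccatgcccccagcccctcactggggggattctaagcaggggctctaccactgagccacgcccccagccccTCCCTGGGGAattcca
Hjurp, chr1:88277580-88277756 (minus strand): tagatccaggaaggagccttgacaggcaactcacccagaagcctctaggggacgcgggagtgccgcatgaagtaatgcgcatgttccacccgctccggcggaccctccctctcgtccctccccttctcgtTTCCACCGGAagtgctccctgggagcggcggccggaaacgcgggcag
Clcn6, chr4:148038814-148039063 (minus strand): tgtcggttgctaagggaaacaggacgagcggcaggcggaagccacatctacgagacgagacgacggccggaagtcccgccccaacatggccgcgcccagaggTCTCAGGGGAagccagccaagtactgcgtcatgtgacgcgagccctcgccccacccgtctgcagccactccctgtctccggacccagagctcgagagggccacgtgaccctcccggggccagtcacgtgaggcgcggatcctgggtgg
Gm5165, chr17:17234710-17234902 (plus strand): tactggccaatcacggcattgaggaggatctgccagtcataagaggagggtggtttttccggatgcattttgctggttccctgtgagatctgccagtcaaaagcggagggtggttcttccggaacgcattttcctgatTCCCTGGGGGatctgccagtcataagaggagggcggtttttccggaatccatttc
Gm30039, a long noncoding RNA gene 13.4 kb from Icosl, and Gm20485, another long noncoding RNA gene, matched all 8 fixed positions. Clcn6, which encodes an intracellular chloride transporter, and Gm5165 matched 7. Hjurp, which encodes the chaperone of the centromeric histone CENP-A, matched only 6. In the Gm20485 stretch a run of 44 bases occurred 2 times, and in that of Gm5165 a run of 25 bases. The scaled counts of EBF1wt and EBF1E271A were 240.3 and 93.0 at Gm30039, 194.5 and 99.9 at Gm20485, 170.8 and 90.4 at Hjurp, 153.4 and 97.4 at Clcn6, and 148.6 and 96.8 at Gm5165. Each value is from 1 library, and all 5 EBF1E271A values lie between 90.4 and 99.9, close to the limit of 100.

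Of the microRNA hairpins in the RefSeq table, 1 lies whole inside a member region. The hairpin of miR-139 (chr7:101475376-101475443, plus strand), a small RNA that represses messages through its seed, lies inside the member region chr7:101475178-101475477 in the phosphodiesterase gene Pde2a. The mature sequences are printed with the seed (bases 2 to 8) in capitals, and the arms do not share a seed.
mmu-miR-139-5p: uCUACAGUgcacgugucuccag
mmu-miR-139-3p: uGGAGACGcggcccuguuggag
The region's EBF1wt value was 150.2 scaled counts and its EBF1E271A value 94.9 (ratio 0.632, 0.485 to 0.826). Ratios are EBF1E271A over EBF1wt throughout. The range in brackets is the exact binomial (Clopper-Pearson) 95% interval from the unscaled counts. It covers counting error only, since PCR copies are not separate molecules and the scale factors were taken as free of error. Since each protein had 1 library, replicate error is unknown and no test was made between them. A lower value in all cells and the same value in fewer cells cannot be told apart.

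Most members were weak regions close to the limit. Their EBF1wt values ran from 101.2 to 877.5 scaled counts with a median of 113.8, and the middle 50% lay between 105.9 and 128.1. Their EBF1E271A values ran from 7.59 to 99.9 with a median of 83.5, between quartiles of 70.8 and 92.3. By contrast, the 2852 regions above 100 in both libraries had medians of 172.3 and 163.2. Before scaling, a member rested on a median of 72 counts for EBF1wt and 132 for EBF1E271A, and the members' counts summed to 71916 and 116300. Most members overlap another almost fully and 1 pair is an exact duplicate, so these sums count most reads more than once. Only 77 members (8.32%) exceeded 150 for EBF1wt and 16 exceeded 200. At the other end, 70 members were at or below 50 for EBF1E271A and 16 at or below 30. The members made up 13.9% of the summed EBF1wt values of all regions and 10.5% of the summed EBF1E271A values.

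**Figure D1:**
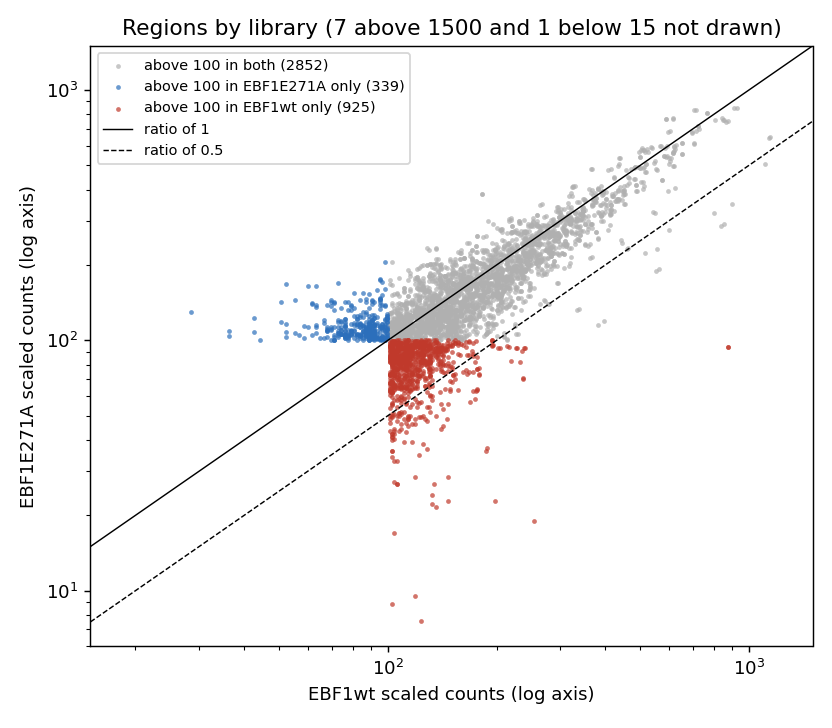
Each point is 1 region, with its EBF1wt scaled count on the horizontal and its EBF1E271A scaled count on the vertical log axis, coloured by the side of 100 on which each value fell; the lines mark ratios of 1 and 0.5. The 925 members fill the block right of 100 and below 100, most of them close to its upper left corner, with a tail of a few points down to 7.59 and 1 outlying locus at 877.5.

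How far below 1 a member's ratio lay varied widely, and that it lay below 1 follows from the rule. The median ratio was 0.685 (95% binomial interval of the median 0.670 to 0.703, treating regions as independent), with quartiles of 0.582 and 0.790, a lowest value of 0.0615 and a highest of 0.975. The median ratio was 0.901 over all regions and 0.936 over the regions above 100 in both. The interval of the members' median covers the spread of regions within 1 library per protein only. Most members overlap another, so they are not independent and this interval is too narrow. In log2 after a pseudocount of 1, the members' median was -0.54 and that of all regions -0.15. With loci counted once, the members' median log2 ratio was -0.55 (-0.59 to -0.50). By a fixed fold, 417 members (45.1%) were at least 1.5-fold lower for EBF1E271A, against 13.4% of all regions, and 143 members (15.5%) at least 2-fold lower, against 4.06%. Counted as loci, 233 (45.9%) were at least 1.5-fold lower, against 14.5% of all loci, and 80 (15.7%) at least 2-fold, against 4.48%. Giving the libraries equal sums over all regions left 502 regions in the set. With the values so rescaled, 82 of the original 925 members were at least 2-fold lower, and the median log2 ratio of the 925 became -0.32. Because the same values chose the members, these shares describe the set and support nothing else. Members make up 143 of the 167 regions of the whole table that were at least 2-fold lower. This too largely follows from the rule, since every deposited region is above 100 in at least 1 library. A region 2-fold lower then has EBF1wt above 100, and is no member only if EBF1E271A is above 100 as well. Further out, 29 members (17 loci) were at least 3-fold lower and 14 (9 loci) at least 5-fold. The interval of 346 members (37.4%) held a ratio of 1, so for these the counts do not separate the proteins, and that of 494 (53.4%) held the median of all regions.

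The values ran on across the limit of 100. In EBF1wt the lowest value above it was 101.2 and the highest at or below it 99.6, which are neighbouring whole counts before scaling. In EBF1E271A the highest value at or below it was 99.9, shared by the loci at Msn and Nav2 among others, and the lowest above it was 100.6. The 136 members with EBF1E271A above 95 had a median ratio of 0.810, and the 117 regions above 100 in both with EBF1E271A up to 105 had one of 0.846. The members closest to a ratio of 1 lay near Xdh (xanthine dehydrogenase), with 101.2 for EBF1wt and 98.7 for EBF1E271A (0.975, 0.724 to 1.33), Zdhhc13 (a palmitoyltransferase, 0.963), Btnl2 (a butyrophilin family gene, 0.960), Clic6 and Zc2hc1a (both 0.952), and Letmd1 and Cdh23 (both 0.946). All of these intervals held 1.

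The 12 lowest ratios lay between 0.0615 and 0.251, and 7 of the 12 loci lay inside gene bodies. A locus is given here by its member region with the higher EBF1wt value. Inside Celf2, which encodes an RNA-binding splicing regulator, EBF1wt had 123.3 and EBF1E271A 7.59, the latter 12 counts before scaling (chr2:7115269-7115568, ratio 0.0615, 0.0305 to 0.114). Inside Ms4a14, of the membrane-spanning family that also holds the CD20 gene, they were 254.6 and 19.0 (chr19:11303102-11303401, 0.0745, 0.0487 to 0.111). At 0.126 kb from Ctxn3, a cortexin gene, they were 118.6 and 9.49 (chr18:57467476-57467775, 0.0800, 0.0427 to 0.141). Of the other member loci, only those near Batf and Mylk4 had EBF1E271A values as low as these 3.

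Another of the 12 lay near Batf, which encodes an AP-1 family transcription factor of activated lymphocytes. At 7.08 kb from the gene, 102.8 for EBF1wt stood against 8.86 for EBF1E271A (chr12:85679487-85679786, 0.0862, 0.0447 to 0.155). Inside Cdk17, a cyclin-dependent kinase gene, the member with the highest EBF1wt value of the set had 877.5 against 94.2 (chr10:93198374-93198673, 0.107, 0.0890 to 0.129). This locus stands apart from the others: its EBF1wt value is more than 3-fold that of the next member locus, and its EBF1E271A value is close to 100. Values of 147.0 and 22.8 were found inside the adhesion receptor gene Adgrv1 (0.155), and of 136.0 and 21.5 inside Ift27, a ciliary transport gene (0.158). The locus 29.6 kb from the kinase gene Mylk4 had 104.4 and 17.1 (0.164), that inside Stox2 147.0 and 28.5 (0.194), and that 36.5 kb from the elastin gene Eln 188.2 and 37.3 (0.198). The last of the 12 were inside the semaphorin gene Sema5b, with 118.6 and 28.5 (0.240), and 20.5 kb from Tm2d1, with 105.9 and 26.6 (0.251). The upper bounds of these 12 intervals reached at most 0.374, below the median of all regions.

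**Figure D2:**
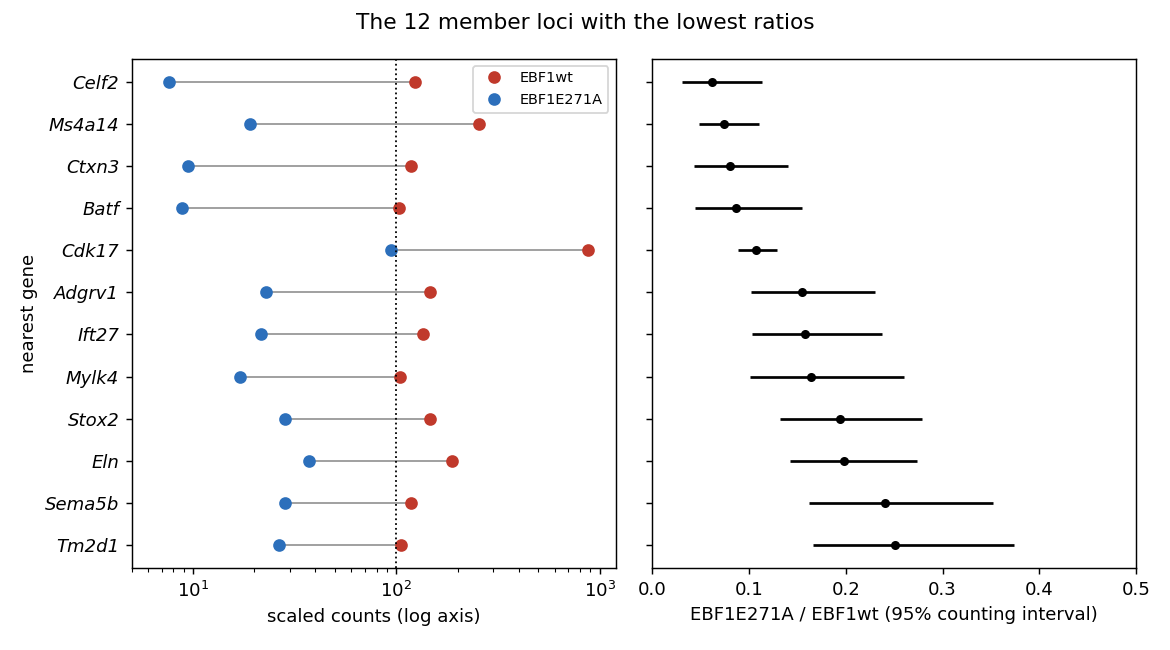
For the 12 member loci of lowest ratio, the left panel gives the scaled counts of both libraries on a log axis with the limit of 100 dotted, and the right panel the ratio with its 95% counting interval. The ratios run from 0.0615 at Celf2 to 0.251 at Tm2d1, and Cdk17 alone combines a low ratio with an EBF1E271A value close to 100.

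Strong EBF1wt members were few. After Cdk17 and Ms4a14, the highest EBF1wt value was 240.3, at 13.4 kb from Icosl. B cells present the product of this gene to the receptor ICOS on T cells. The EBF1E271A value there was 93.0 (0.387, 0.306 to 0.489), and this is the region whose Gm30039 promoter stretch is printed above. Inside Castor2, of the amino acid sensing pathway upstream of mTORC1, the values were 237.2 and 70.8 (0.299, 0.232 to 0.384). Values of 235.6 and 90.4 were found 24.3 kb from Rpp21, a ribonuclease P subunit gene (0.384), and of 232.4 and 81.6 inside Auts2 (0.351). The last 2 of these 8 loci lay inside the aldehyde oxidase gene Aox2, with 227.7 and 93.6 (0.411), and inside Por, the cytochrome P450 reductase gene, with 216.6 and 94.2 (0.435). All 8 intervals lay below the median of all regions.

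A set of 10 gene lists, of B cell, Notch, T cell, myeloid, stromal and general function, was then read against the members. Of 245 listed genes, 84 had any locus nearest to them and 23 had a member locus. Members were 24 of the 110 loci of listed genes (21.8%), close to their 24.0% of all loci.

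B cell surface receptors and coreceptors held 4 member loci of 15, near 3 of the 13 genes with a locus. All 4 were at least 2-fold lower, as were 15.7% of all member loci and 4.48% of all loci. Cxcr5 encodes the chemokine receptor that guides B cells into follicles and had 2 of the 4. Inside the gene 104.4 for EBF1wt stood against 50.6 for EBF1E271A (0.485, 0.346 to 0.682), and 0.0665 kb outside it 113.8 against 45.5 (0.400, 0.285 to 0.562). No locus of Cxcr5 was above 100 in both libraries. Beside Cd72, an inhibitory coreceptor gene, the values were 107.5 and 51.2 (0.477), and the Icosl locus is given above.

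B lineage transcription factor genes held 3 member loci of 15, none of them 2-fold lower. Near Sox4, a factor of early B cell survival, the values were 139.1 and 93.0 (0.668, 0.510 to 0.880). At 93.8 kb from Foxo1 they were 121.7 and 94.2 (0.774), and inside Mef2d, a factor active downstream of the pre-B cell receptor, 117.0 and 96.1 (0.822), both with intervals that held 1. A second Mef2d locus, above 100 in both, had 123.3 and 120.2 (0.974).

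The list for the pre-B cell receptor held 4 member loci of 23, near Nfatc1, Vpreb2, Ptprc and Plcg2. Nfatc1 encodes a transcription factor that calcium signals activate, and inside it the values were 175.5 and 99.3 (0.566, 0.441 to 0.728). Its loci above 100 in both had ratios of 0.896 and 1.17. Inside Vpreb2, a surrogate light chain gene, the values were 120.2 and 86.7 (0.721, 0.541 to 0.967), whereas the locus 9.77 kb outside it, above 100 in both, had 249.8 and 292.8 (1.17, 0.977 to 1.41). Near Ptprc, the CD45 phosphatase gene, the values were 109.1 and 84.8 (0.777), and inside the phospholipase gene Plcg2 104.4 and 88.6 (0.849), both with intervals that held 1. The Plcg2 loci above 100 in both had ratios of 0.792 and 1.01.

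Of the Notch pathway, 2 of the 9 genes with a locus had a member. Inside Maml3, a coactivator of the NICD and RBPJ complex, the values were 115.4 and 70.2 (0.608, 0.449 to 0.829). At 55.5 kb from Hes1, a direct Notch target that represses other factors, they were 101.2 and 91.7 (0.906), and the Hes1 locus at 1.86 kb, above 100 in both, had 148.6 and 135.4 (0.911). No locus of the T lineage list (3 loci) or of the stroma and adipocyte list (5 loci) was a member. These lists are short, and a count of 0 allows shares of up to 70.8% and 52.2% by the exact binomial interval.

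Regulators of small GTPases, which switch small GTP-binding proteins on or off, held the largest number of member loci of the 10 lists, 6 of 17 (35.3%, 14.2 to 61.7). This was also the longest list, with 39 genes, and the interval holds the 24.0% of all loci that were members. The lowest ratio was inside the exchange factor gene Fgd2, with 107.5 and 50.0 (0.465, 0.332 to 0.652), and its loci above 100 in both had 0.935 and 0.835. Inside Rapgef5 the values were 102.8 and 50.6 (0.492, 0.350 to 0.694), and its other locus had 0.858. Inside Tiam1, a Rac exchange factor gene, they were 132.8 and 69.6 (0.524). Elmo1 had 132.8 and 83.5 at 10.6 kb (0.629), Arhgef10 101.2 and 72.7 (0.719), and Iqsec1 117.0 and 93.0 (0.795, an interval that held 1). The Iqsec1 loci above 100 in both had ratios of 0.814 and 1.29, and that above 100 in EBF1E271A only had 1.38.

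The myeloid and innate lymphoid list held 2 member loci of 7. At 17.5 kb from Csf2ra, the receptor gene for GM-CSF, the values were 156.5 and 63.3 (0.404, 0.303 to 0.539). At 64.9 kb from Cebpb, which encodes a myeloid transcription factor, they were 167.6 and 87.3 (0.521), and the locus at 86.9 kb, above 100 in both, had 0.943. Chromatin regulators held 2 of 8, inside Hdac4 with 113.8 and 87.9 (0.772) and inside Arid1b with 104.4 and 87.9 (0.843), both with intervals that held 1. Another Arid1b locus was above 100 in EBF1E271A only, with 83.8 and 117.6 (1.40, 1.03 to 1.94). The cell cycle, survival and growth list held the Cdk17 locus alone, 1 of 6.

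**Figure D3:**
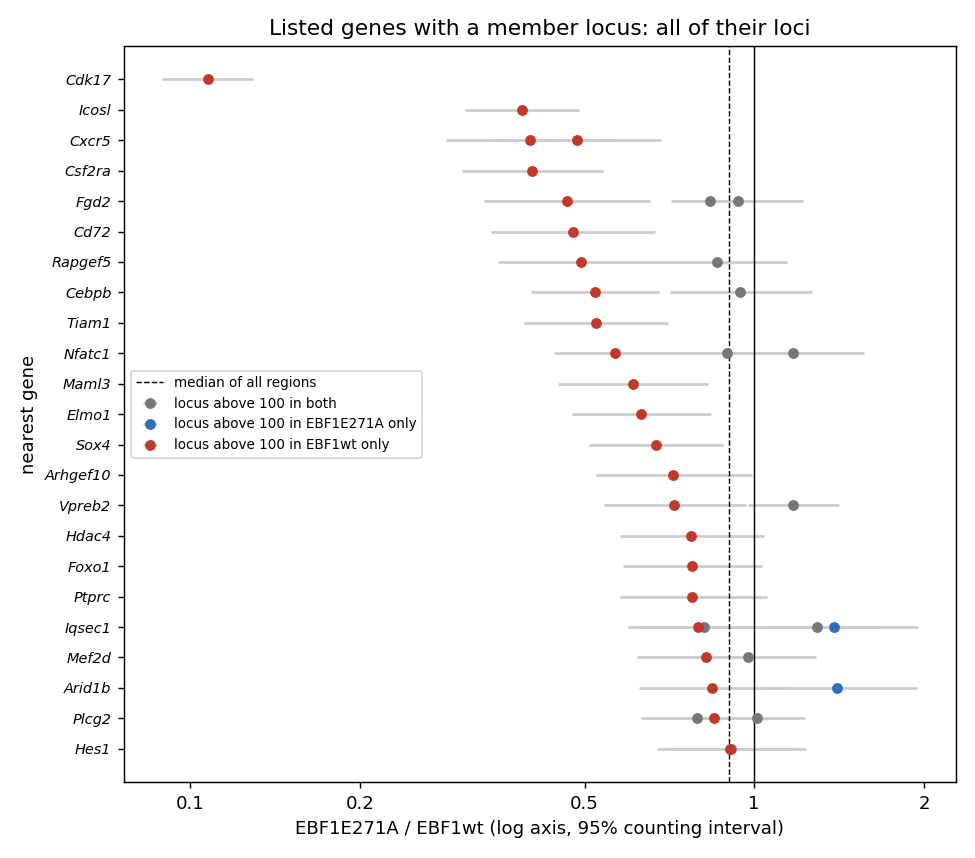
Every locus whose nearest gene is 1 of the 23 listed genes with a member, placed by its ratio on a log axis with the 95% counting interval and coloured by class; the lines mark a ratio of 1 and the median of all regions. Cdk17 has the lowest member at 0.107, members of Cxcr5, Icosl, Csf2ra, Fgd2, Cd72 and Rapgef5 lie below 0.5, and the loci above 100 in both that share a gene with a member lie between 0.792 and 1.29.

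Members were spread over many genes. A protein-coding gene lay within 100 kb of 469 member loci, which gave 437 genes, and 30 of these genes had 2 or more member loci. Only Nav2, a gene of neuronal migration, had 3 or more, with 4. Their values were 112.3 and 75.9 (0.676), 112.3 and 77.8 (0.693), 110.7 and 58.2 (0.526), and 194.5 and 99.9 (0.514), whereas a Nav2 locus directly beside the third, above 100 in both, had 102.8 and 116.4 (1.13, 0.849 to 1.53). Of the 437 genes, 102 (23.3%) also had a locus above 100 in both, and 17 one above 100 in EBF1E271A only. The 137 loci above 100 in both at such genes had a median ratio of 0.912, and the 1298 at other genes or none 0.933. Inside Rgs3, a regulator of G protein signalling, the member had 143.9 and 93.0 (0.646, 0.494 to 0.849), and a locus less than 2 kb away had 177.1 and 261.2 (1.48, 1.19 to 1.83). Near Irf2bpl the member had 132.8 and 57.6 (0.433, 0.319 to 0.590), and another locus 219.8 and 303.6 (1.38, 1.14 to 1.68). In these 2 genes the intervals of the loci do not overlap; the pairs were picked after their values were seen.

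The members' positions were close to those of the whole table. Of the 925 members, 146 (15.8%) lay within 1 kb of a gene end, 451 (48.8%) further inside genes and 328 (35.5%) between genes, and of all regions 14.9%, 46.3% and 38.8%. Gene ends are both ends of a gene body, since the gene table has no strand. Within the set, the median ratio of loci at gene ends was 0.721 (quartiles 0.643 and 0.805), with 5 of 83 at least 2-fold lower. Inside genes it was 0.662 (0.564 and 0.782) with 41 of 245, and between genes 0.697 (0.550 and 0.788) with 34 of 180. Of all member loci 15.7% were at least 2-fold lower, and of all loci 4.48%. The ranges between quartiles overlap, and the rule used these same values, so the medians are descriptions. Member loci were 107.6 kb from their nearest other locus in the median, and loci above 100 in both 99.8 kb. A protein-coding gene was farther than 100 kb for 39 member loci (7.68%), against 5.09% of the loci above 100 in both.

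The layout of the deposited regions differed, but the limit of 100 bears on it. Most loci consist of 2 overlapping regions. Of the 508 member loci, 417 held 2 members, 71 a single region, 19 a member and a region above 100 in both, and 1 a member and a region above 100 in EBF1E271A only. Single-region loci made up 14.0% of the member loci (95% binomial interval 11.1 to 17.3), 1.32% of the loci above 100 in both (0.799 to 2.06) and 20.2% of those above 100 in EBF1E271A only (14.6 to 26.9). Every deposited region is above 100 in at least 1 library, so an overlapping partner just below the limit in both is not in the table. Loci close to the limit can become single regions in this way, so these shares do not show a layout apart from the limit. Where 2 regions overlapped, their centres were 19 bp apart in the median for members, 14.5 bp for regions above 100 in both and 17 bp for those above 100 in EBF1E271A only. In the 19 mixed loci the member's median values were 121.7 and 98.7 and those of its partner 123.3 and 101.8, with centres 26 bp apart in the median.

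Members lay on every chromosome with more than 1 locus, and their share of the loci ran from 15.3% on chromosome 12 to 30.8% on chromosome 8, with chromosome X above this range at 8 of 13 loci (61.5%, 31.6 to 86.1). The X members lay at Msn, which encodes moesin of the cell cortex (123.3 and 99.9), at the coagulation factor genes F8 (118.6 and 89.2) and F9 (115.4 and 92.3), at Syn1 (113.8 and 71.5), Upf3b (109.1 and 86.7), Tmem255a (104.4 and 66.4) and the receptor gene Gpr174 (102.8 and 55.7), and 1 had no gene within 100 kb (143.9 and 92.3). Their ratios, 0.542 to 0.810, had a median of 0.697, none of them 2-fold lower. The X loci above 100 in both included that inside Btk, the kinase gene of B cell receptor signalling, with 140.7 and 105.0 (0.746, 0.573 to 0.976). The median values of all X loci were 123.3 for EBF1wt and 92.3 for EBF1E271A, both below the medians of all regions, 143.9 and 132.2. With 13 loci, the interval of the X share is wide.

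Chromosome 5 held the most member loci, 49 of 161 (30.4%), and 17 of them were at least 2-fold lower, as were 15.7% of all member loci and 4.48% of all loci. Of these, 13 lay between 130 and 140 Mb, where 26 of 50 loci were members with a median ratio of 0.496. It was the only 1 of 84 intervals of 10 Mb with at least 10 loci in which at least 50% of the loci were members. Elsewhere 482 of 2071 loci (23.3%) were members, with a median ratio of 0.694 and 67 of them (13.9%) at least 2-fold lower. The loci above 100 in both were also lower there, with a median ratio of 0.781 at 23 loci against 0.932 at 1412 elsewhere. Members of the interval beside Eln and inside Castor2, Auts2 and Por are given above. Further ones lay inside Hip1, a gene of clathrin-mediated uptake (147.0 and 55.7, and 143.9 and 63.9), inside Slc12a9 (164.4 and 75.9), inside Mettl27 (118.6 and 58.2) and near Cux1, a homeobox gene (118.6 and 46.2). For 21 of the 26 members the interval lay below the median of all regions. The next interval by number of members, 110 to 120 Mb of chromosome 11, had 12 of 34.

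**Figure D4:**
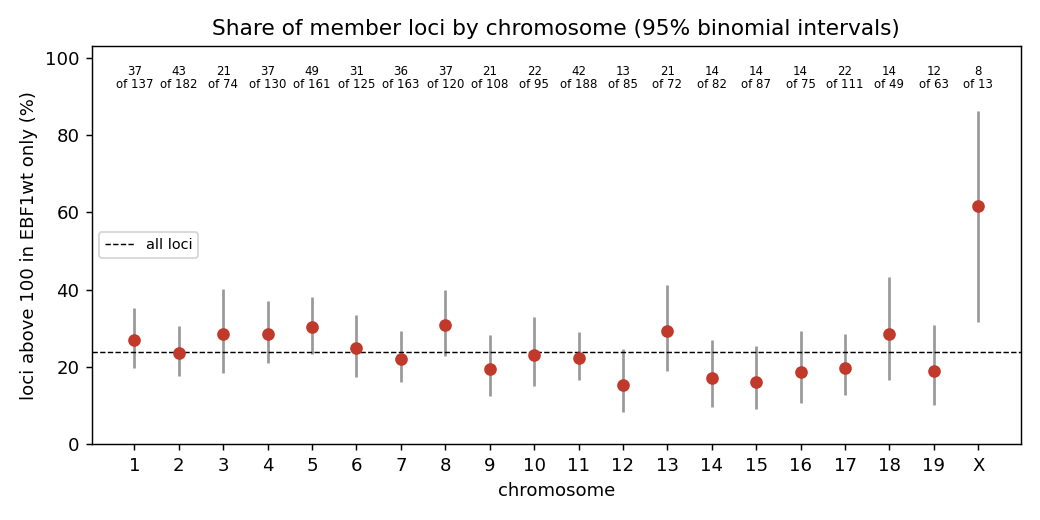
The share of loci that are members is given for each chromosome as a point with its 95% binomial interval, with the counts printed above and the share over all loci as a dashed line. Chromosome X, at 8 of 13 loci, is the highest point and has the widest interval; the others lie between 15.3% and 30.8%.

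Promoter windows were as common among members as among other loci. A window overlapped 43 of 494 member loci (8.70%, 6.37 to 11.5), 121 of 1401 loci above 100 in both (8.64%) and 15 of 176 loci above 100 in EBF1E271A only (8.52%), counted over the chromosomes the promoter table covers. Of the windows sharing at least 150 bases, the EBF1 motif was in 9 of 35 for members (25.7%, 12.5 to 43.3), 29 of 81 for loci above 100 in both (35.8%, 25.4 to 47.2) and 0 of 11 for those above 100 in EBF1E271A only (up to 28.5%), against 0.904% of all 32851 windows. The intervals of the first 2 groups overlap. The core CCCNNGGG, which every full motif contains, was in 57.1%, 74.1% and 36.4% of these windows, and in 13.7% of all. At most 1 mismatch to the full motif was met by 74.3%, 84.0% and 72.7%, and by 5422 of all 32851 windows.

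Other motifs, searched on both strands, were near the share of all windows in members. The RBPJ motif TGGGAA, of the factor that NICD1 joins, was in 25.7% of the member windows and 25.6% of all windows. The RUNX motif TGTGGT was in 17.1% and 16.8%, and the E-box CAGCTG of the E proteins in 22.9% and 16.3%. The letters GGGA are in both the EBF1 and the RBPJ motif, so 1 stretch can hold both. The median GC content was 60.7% in the member windows, 61.7% in those above 100 in both and 52.7% in all, and the median number of CpG dinucleotides 19, 21 and 7. A run of at least 15 bases occurring more than once, as printed above for Gm20485 and Gm5165, was in 5 of 35 member windows (14.3%, 4.81 to 30.3), 4 of 81 of those above 100 in both (4.94%) and 7.17% of all.

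**Figure D5:**
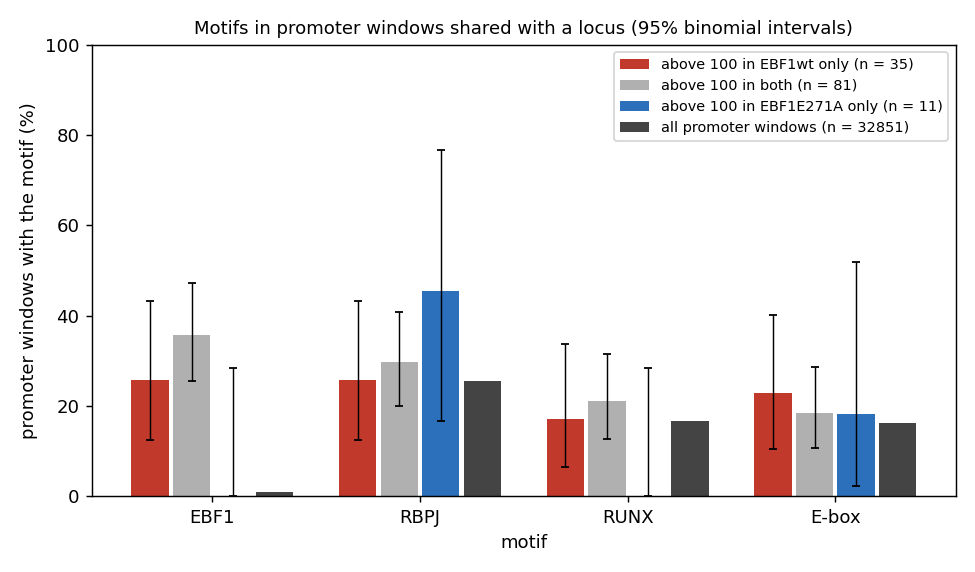
Bars give the percent of promoter windows that hold each motif, for windows sharing at least 150 bases with a region of each class and for all windows, with 95% binomial intervals. The EBF1 bars of members (25.7%) and of loci above 100 in both (35.8%) stand far above that of all windows (0.904%), while the member bars of RBPJ and RUNX are level with all windows.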

How the data were processed

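The values are a deposited signal. Columns named as scaled counts, per the file headers, give both ChIP libraries at each region, and the authors' scale rests on the human chromatin, per the labels. Tools in the submitters' processing notes are deepTools 3.5.0 and 3.3.2, bedtools 2.27.0, MACS2 2.2.7.1, SAMtools 1.10 and Bowtie2 2.3.5.1, with GRCm38. Region calling and scale factors are not given in the sources used. Each 20 µg of chromatin received 4 µg of EBF1 antibody. The input has no value per region in the table.

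Every value was a whole multiple of 1.5811 (EBF1wt) or 0.6325 (EBF1E271A), within 0.001, and dividing by these gave the unscaled counts behind the intervals. Simulated intervals covered the true ratio at 95.8% of 4116 regions. The simulation drew independent counts with counting error alone, which the intervals assume, and did not select members. It therefore checks the calculation only, not the intervals of selected members. Coordinates are counted from 1. Genes are the nearest of 21900 protein-coding RefSeq gene bodies (GRCm38.p6) within 100 kb of a region's centre. Log2 ratios carry a pseudocount of 1. Python 3.11.15, pandas 2.3.3 and scipy 1.17.1 were used.

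Named were the 12 lowest ratios, the 8 highest EBF1wt values, the 6 ratios closest to 1 with a tie, loci of listed genes, genes with 3 or more member loci, members next to the limit, and the 5 strongest promoter overlaps. The members, lists and rules were chosen with earlier results of these data known. The 150-base overlap, the genes of chromosomes X and 5, Rgs3, Irf2bpl and the groups under other observations were chosen after their values were seen. Of 246 listed genes, 245 were in the table. Alternatives were other scalings, pseudocounts, limits, gene windows and motifs, loci counted once, and regions without 130 to 140 Mb of chromosome 5.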

Additional observations from a re-analysis of the deposited data

How the results depend on the processing

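The set itself depends on scale and limit. Giving the libraries equal sums, which raises every log2 ratio by 0.22, left 502 regions in place of 925, all of them among the 925. The set held 371 regions at a limit of 80 and 508 when loci were counted once. The 371 are the members with EBF1E271A at or below 80. Every deposited region is above 100 in at least 1 library, so the lower limit could only remove regions. Regions with EBF1wt between 80 and 100 and EBF1E271A at or below 80 cannot be seen. The count at 80 therefore does not show the size of the set at a lower limit. The median log2 ratio of -0.54 became -0.32 with equal sums, -0.39 with equal sums without the region of highest EBF1wt value, -0.49 with a pseudocount of 10 and -0.63 for members at or above their median EBF1wt value. The 143 members at least 2-fold lower became 82 with equal sums, 80 as loci and 417 by the 1.5-fold rule. Under each scaling to equal sums, the median and this count were taken over the original 925 members, not over the regions left in the set. With a window of 2.5 kb, the shares were 23.8% for gene ends, 43.9% for gene bodies and 32.3% for the space between. Considering all genes within 50 kb gave 35 listed genes in place of 23. The EBF1 motif share of 25.7% became 57.1% for the core and 74.3% with 1 mismatch allowed. The other counts changed by less than 1.5 times: the set held 631 regions with equal sums without the highest region and 683 at a limit of 120, the members at least 2-fold lower were 112 with a pseudocount of 10, 101 with equal sums without the highest region and 118 without 130 to 140 Mb of chromosome 5, and 16 listed genes had a member within 10 kb. No alternative turned a direction, which the rule largely fixes. The motif share with any promoter overlap (20.9%) was added after the data were seen. No paired analysis was possible because each group had 1 library, and no replicate could be left out. A median of 72 EBF1wt counts per member gives intervals about 30.4% of the ratio to either side, which limits what single members show.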

Other observations

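Several groups of genes outside the lists were picked by name from the members, after their names were seen. The groups were not made complete, so their counts and medians describe the chosen genes only. The transcription factor group, for example, leaves out Meox1 (ratio 0.663) and the zinc finger gene Zfp957 (0.428). The chosen transcription factor genes had 22 member loci near 20 genes, with a median ratio of 0.729. Of these loci, 2 were at least 2-fold lower, as were 15.7% of all member loci and 4.48% of all loci. Besides Batf, the 22 included 2 loci of Smad3, a gene of TGF-β signalling, with 110.7 for EBF1wt and 81.6 for EBF1E271A (0.737) and with 113.8 and 59.5 (0.522). Meanwhile, 2 further Smad3 loci above 100 in both had ratios of 0.974 and 1.00. The homeobox repressor gene Tgif1 had 150.2 and 77.2 (0.514, 0.390 to 0.679), and Rxra, a nuclear receptor gene, 110.7 and 63.3 (0.571, 0.417 to 0.787). Interferon and cytokine factors lay closer to 1, with 0.854 at Irf1, 0.879 at Irf2 and 0.843 at Stat5b, all with intervals that held 1.

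The chosen histone and chromatin genes had 12 member loci with a median ratio of 0.654. Near the Polycomb gene Cbx2 the values were 150.2 and 68.3 (0.455, 0.342 to 0.606). The chosen adhesion and migration genes had 13 member loci with a median of 0.656. The integrin gene Itga6 had 158.1 and 87.3 (0.552), and a second Sema5b member 104.4 and 44.3 (0.424, 0.299 to 0.603). The chosen genes of G protein-coupled and cytokine receptors had 9 with a median of 0.667 and none 2-fold lower. The adhesion receptor gene Adgrv1, given above with a ratio of 0.155, was not among those chosen. At Cnr2, the cannabinoid receptor gene of B cells, the member had 109.1 and 84.8 (0.777, 0.577 to 1.05) and a locus less than 3 kb away 137.6 and 210.6 (1.53, 1.21 to 1.96).

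The chosen genes of ion channels and their regulators had 14 member loci with a median of 0.649. Of these, 4 were at least 2-fold lower (15.7% of all member loci and 4.48% of all loci were). Solute carrier genes with a member, such as Slc2a8 (0.439), Slc12a9 (0.462) and Slc26a9 (0.900), were not among those chosen. At Hvcn1, the proton channel gene of B cells, the member had 128.1 and 36.7 (0.286, 0.201 to 0.406), and its locus above 100 in both had 151.8 and 112.0 (0.738). The potassium channel gene Kcnj1 had 102.8 and 42.4 (0.412). The chosen phosphoinositide and growth signalling genes had 10 with a median of 0.672. The lowest after Castor2 was Rptor, the gene of an mTORC1 subunit, with 128.1 and 62.0 (0.484, 0.357 to 0.658).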
